A study of Mus musculus with 18 samples.

Results

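Interferon-stimulated genes are the genes that cells switch on when an interferon binds its receptor. Type I and type III interferons act through the kinases JAK1 and TYK2 on a complex that holds STAT2 and IRF9 and binds the interferon-stimulated response element (ISRE), whereas interferon-γ acts on the gamma-activated site (GAS). In the liver, hepatocytes, Kupffer cells and endothelial cells all respond, and the induced proteins sense foreign RNA, block viral replication, disrupt the vacuoles of parasites and load peptides for presentation to T cells. Here 41 such genes were taken by symbol from the 55487 genes of the count table. The rule used no measured value, but the list was chosen with earlier results of these data known. All 41 were present and all 41 passed the filter on low counts in both comparisons. They comprise 23 antiviral effectors, 4 genes of the ISG15 and ubiquitin-like system, 4 transcription factors, 2 RNA sensors, 6 GTPases and 2 peptide transporters.

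Each of 18 male C57BL/6J mice gave 1 liver library, with 6 mice per group. Every mouse had been given an AAV8 vector with the hepatocyte TBG promoter, and the diets followed 1 week later. CON-GFP mice carried the GFP vector and ate the purified control diet, FPC-GFP mice carried the same vector and ate the FPC diet (high in fat, with added fructose, palmitate and cholesterol, and sugar in the drinking water), and FPC-LIPA mice ate the FPC diet and carried human LIPA, the gene of lysosomal acid lipase. Mice were bought at 7 weeks of age, fed for 16 weeks and fasted for 4 h before collection. No mice without a vector and no LIPA mice on the control diet were analysed here, so the vector's own effect cannot be told apart in any group.

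Total counts were from 16632146 to 37739301 per library. The human transgene is not counted by the mouse genes, and mouse Lipa, at 240.3 to 406 CPM in FPC-GFP (median 342) and 254 to 385 CPM in FPC-LIPA (median 292), does not check the label. The 4 hepatocyte markers Alb, Apoa1, Ttr and Serpina1a summed to between 44132 and 88166 CPM (counts scaled to the size of the library) in every library. Ribosomal protein genes took 6.33% to 8.02% of the counts in FPC-LIPA 36, 37 and 39, against 2.102% to 2.86% in FPC-LIPA 31, 33 and 34, 1.39% to 1.75% in FPC-GFP and 1.70% to 2.47% in CON-GFP. Values without these 3 libraries are given for the LIPA comparison. Sample sheet numbers in the labels, whose meaning is not stated, were from 55 to 68 except in 2 CON-GFP livers (mice 1 and 2), mouse 20 of FPC-GFP and mouse 37 of FPC-LIPA, whose sample is titled 37b. Those 4 libraries are too few for a comparison of their own.

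The element through which type I interferon acts was sought at the starts of these genes. Promoter windows from 250 bases before to 50 bases after the start were available from RefSeq (GRCm38.p6) for 32 of the 41 genes, and the ISRE core, written GAAANNGAAA and sought on both strands, was present in 17 of the 32 (53.1%) against 1079 of 27025 genes (3.99%). Read on the strand of the gene alone, it was in 8 of the 32 (25.0%) against 2.06% of genes. The GAS core TTCNNNGAA was in 8 of the 32 (25.0%) against 9.55% of genes. Matches of the ISRE core overlapped one another where its repeats follow closely, as in Isg15. Because these genes are known for this element, its excess describes the list and is not a result of the diet or of LIPA. The core was found in 11 of 20 genes past the threshold in either comparison below and in 6 of 12 past it in neither. A match of these letters does not show that a factor bound there.

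Windows are shown for 7 of the genes with the core and for Slfn2, which had the smallest adjusted p in the LIPA comparison and no match. They were chosen to set genes with different responses beside each other. All are written 5′ to 3′ on the strand of the gene, with the ISRE core, or the stretch covered by overlapping cores, in capitals.
Isg15 chr4:156200769-156201068 (- strand): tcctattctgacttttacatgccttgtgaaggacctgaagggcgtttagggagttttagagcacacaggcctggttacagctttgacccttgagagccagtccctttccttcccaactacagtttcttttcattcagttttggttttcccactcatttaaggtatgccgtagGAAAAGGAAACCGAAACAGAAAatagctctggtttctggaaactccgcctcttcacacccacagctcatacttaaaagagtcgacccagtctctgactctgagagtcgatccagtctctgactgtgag
Oas1a chr5:120907476-120907775 (- strand): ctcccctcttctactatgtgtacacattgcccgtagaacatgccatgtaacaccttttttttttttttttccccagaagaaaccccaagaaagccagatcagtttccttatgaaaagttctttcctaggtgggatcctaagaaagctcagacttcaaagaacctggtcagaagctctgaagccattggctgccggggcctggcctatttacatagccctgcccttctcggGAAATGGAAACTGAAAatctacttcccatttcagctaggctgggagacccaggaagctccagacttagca
Oas1g chr5:120887564-120887863 (- strand): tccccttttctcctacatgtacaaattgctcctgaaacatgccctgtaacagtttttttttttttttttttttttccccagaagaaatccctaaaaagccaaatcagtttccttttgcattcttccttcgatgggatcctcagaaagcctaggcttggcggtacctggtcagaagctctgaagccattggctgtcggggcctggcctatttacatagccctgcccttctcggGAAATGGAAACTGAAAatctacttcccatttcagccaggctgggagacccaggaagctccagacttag
Rsad2 chr12:26456403-26456702 (- strand): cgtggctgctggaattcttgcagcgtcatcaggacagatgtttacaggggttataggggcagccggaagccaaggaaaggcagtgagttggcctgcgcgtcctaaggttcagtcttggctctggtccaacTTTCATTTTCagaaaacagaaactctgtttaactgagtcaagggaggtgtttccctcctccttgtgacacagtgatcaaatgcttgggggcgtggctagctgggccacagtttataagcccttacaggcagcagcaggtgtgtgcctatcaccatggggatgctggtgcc
Gbp2 chr3:142620413-142620712 (+ strand): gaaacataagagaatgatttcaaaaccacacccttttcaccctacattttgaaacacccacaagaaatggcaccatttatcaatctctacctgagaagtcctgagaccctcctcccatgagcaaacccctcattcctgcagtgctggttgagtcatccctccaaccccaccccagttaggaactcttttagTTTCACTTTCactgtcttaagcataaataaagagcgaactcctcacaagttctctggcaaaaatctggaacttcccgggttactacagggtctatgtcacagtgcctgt
Igtp chr11:58199306-58199605 (+ strand): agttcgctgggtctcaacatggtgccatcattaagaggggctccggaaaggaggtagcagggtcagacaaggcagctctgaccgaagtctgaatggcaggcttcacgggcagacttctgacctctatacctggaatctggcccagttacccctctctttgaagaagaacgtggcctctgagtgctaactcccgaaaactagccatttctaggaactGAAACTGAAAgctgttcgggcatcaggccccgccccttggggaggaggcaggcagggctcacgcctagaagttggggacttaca
Ifih1 chr2:62646206-62646505 (- strand): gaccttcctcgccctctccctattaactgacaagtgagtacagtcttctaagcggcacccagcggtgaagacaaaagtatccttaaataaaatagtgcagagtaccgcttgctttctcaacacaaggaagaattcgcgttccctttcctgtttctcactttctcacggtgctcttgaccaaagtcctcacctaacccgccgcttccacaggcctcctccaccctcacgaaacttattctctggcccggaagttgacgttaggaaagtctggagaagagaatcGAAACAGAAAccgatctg
Slfn2 chr11:83064862-83065161 (+ strand): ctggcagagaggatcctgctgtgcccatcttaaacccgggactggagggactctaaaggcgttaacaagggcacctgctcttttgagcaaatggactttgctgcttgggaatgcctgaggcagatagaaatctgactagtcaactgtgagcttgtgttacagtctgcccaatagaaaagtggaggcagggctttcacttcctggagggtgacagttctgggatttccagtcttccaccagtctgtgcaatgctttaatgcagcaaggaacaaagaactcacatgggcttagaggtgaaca

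Isg15 had 3 overlapping cores between 78 and 57 bases before its start. Oas1a and Oas1g, neighbouring copies of 1 gene, had the same pair of cores, at 20 and 14 bases before the start in Oas1a and at 18 and 12 in Oas1g. In Rsad2 and Gbp2 the core lay on the opposite strand, 120 and 59 bases before the start. Igtp had 1 core 34 bases before the start, and in Ifih1 the core lay after the start, at 32 bases. Of the 27 matches in all members, 24 were before the start and 22 of these within 150 bases of it.

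**Figure D1:**
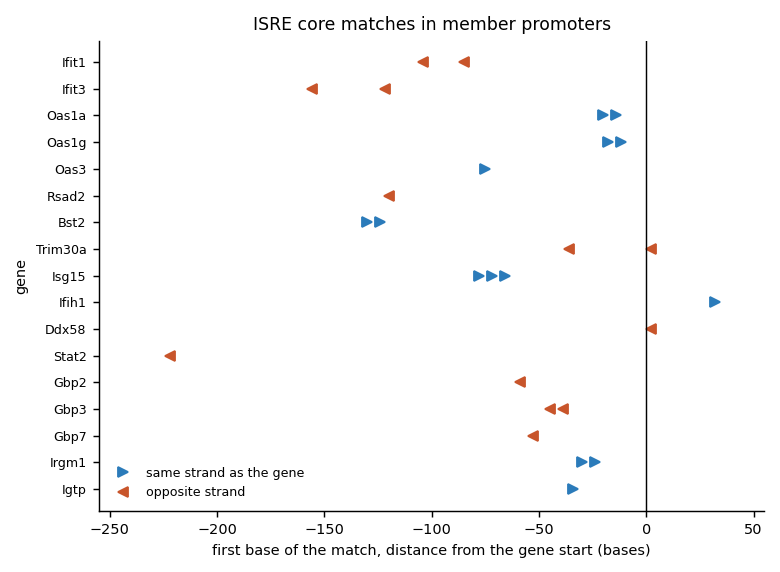
Position of each ISRE core match in the promoter windows of the 17 members that had one, in bases from the gene start (0, vertical line). Right-pointing triangles are on the strand of the gene and left-pointing ones on the opposite strand, and 24 of the 27 matches lie before the start.

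The first comparison asks what the FPC diet did to these genes in GFP livers. In FPC-GFP against CON-GFP, 14 of the 41 genes rose (34.1%), where 12.9% of all 14307 tested genes did, and 1 fell, where 10.9% of tested genes did. The rising genes were Irf1, the oligoadenylate synthetase genes Oas1a, Oas1g, Oas3 and Oasl2, the effectors Bst2, Ifit2, Parp14, Slfn2 and Trim30a, the ubiquitin-like gene Ubd, the sensor gene Ddx58, the GTPase gene Igtp and the peptide transporter gene Tap1. Rsad2 fell. Oas1a, Oas3 and Ubd also reached a fold change of 2 and so were differentially expressed (DE), 7.32% of the 41, where 4.76% of tested genes were DE and higher. Another 2.44% of tested genes were DE and lower, and Rsad2, with its smaller fold, was not one of them. The median log2 fold change was 0.27 over the 41 genes and 0.01 over all tested genes, and 31 of the 41 were above 0. Log2 fold changes are given ± SE throughout. The FPC-GFP livers serve in both comparisons, and in whole liver a change in the number of cells of a type cannot be told apart from a change in RNA per cell.

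Irf1 (ENSMUSG00000018899, chromosome 11, 53770014 to 53778374), an interferon-γ-induced transcription factor, had the smallest adjusted p of the 41. It was at 16.1 to 21.4 CPM in CON-GFP (median 19.3) and at 28.3 to 36.7 CPM in FPC-GFP (median 33.03). All 6 FPC-GFP livers were above all 6 CON-GFP livers, a log2 fold change of 0.76 ± 0.11 (edgeR, adjusted p = 0.000352). The other 3 factors are parts of the type I response: Irf7, Irf9 and Stat2 had log2 fold changes of 0.10 ± 0.15, 0.16 ± 0.11 and -0.0046 ± 0.14 and did not pass the test.

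The oligoadenylate synthetases, most of which make the messenger that activates RNase L when they bind double-stranded RNA, held 4 of the rising genes. Oas1a (ENSMUSG00000052776, chromosome 5, 120896256 to 120907521) was at 1.56 to 3.81 CPM in CON-GFP (median 2.42) and at 4.68 to 6.37 CPM in FPC-GFP (median 5.398). The groups did not overlap, and the log2 fold change was 1.13 ± 0.20 (edgeR, adjusted p = 0.00146). Oasl2 (ENSMUSG00000029561, chromosome 5, 114896936 to 114912234) was at 2.26 to 5.93 CPM in CON-GFP (median 3.49) and at 5.67 to 7.81 CPM in FPC-GFP (median 7.29), and the groups overlapped in 1 FPC-GFP liver, with a log2 fold change of 0.82 ± 0.20 (edgeR, adjusted p = 0.0102). Oas1g had a log2 fold change of 0.96 ± 0.24 and Oas3 of 1.39 ± 0.35, while Oas2 (0.70 ± 0.25, adjusted p = 0.0522, edgeR) and Oasl1 (-0.21 ± 0.13) did not pass. Of the annotated transcript sequence of Oas1a, 40.9% in words of 100 bases also occurred in other genes, mostly Oas1g, so the levels of these copies are uncertain.

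Among the other effectors, Trim30a (ENSMUSG00000030921, chromosome 7, 104409025 to 104465193), a mouse TRIM gene whose product restrains Toll-like receptor signalling, was at 3.13 to 5.99 CPM in CON-GFP (median 4.52) and at 6.48 to 8.105 CPM in FPC-GFP (median 7.38). Its groups did not overlap, and the log2 fold change was 0.68 ± 0.16 (edgeR, adjusted p = 0.00821). Bst2 (ENSMUSG00000046718, chromosome 8, 71534255 to 71537456), which encodes tetherin, a membrane protein that holds budding virions on the cell, was the most abundant effector, at 144 to 191 CPM in CON-GFP (median 173) and at 209 to 257 CPM in FPC-GFP (median 229.6), again without overlap, and its log2 fold change was 0.40 ± 0.11 (edgeR, adjusted p = 0.0132). Ifit2, Slfn2 and Parp14 had log2 fold changes of 0.69, 0.78 and 0.38. Rsad2, which encodes the antiviral enzyme viperin, went the other way, with 4.89 to 8.77 CPM in CON-GFP against 3.999 to 5.83 CPM in FPC-GFP, and its log2 difference was -0.54 ± 0.17 (edgeR, adjusted p = 0.0301). Ifi27 (ENSMUSG00000064215, chromosome 12, 103434211 to 103440239), the next most abundant effector, was at 76.8 to 110.4 CPM in CON-GFP (median 93.4) and at 78.3 to 155 CPM in FPC-GFP (median 100.2), and its change of 0.17 ± 0.17 did not pass.

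Of the 2 RNA sensors that signal through MAVS, Ddx58 (ENSMUSG00000040296, chromosome 4, 40203773 to 40239828), which encodes RIG-I, rose and Ifih1, which encodes MDA5, did not pass (-0.34 ± 0.16). Ddx58 was at 9.82 to 14.9 CPM in CON-GFP (median 13.1) and at 16.99 to 20.96 CPM in FPC-GFP (median 17.6), with no overlap and a log2 fold change of 0.48 ± 0.11 (edgeR, adjusted p = 0.00821). Of the 6 GTPases, 1 passed. Igtp (ENSMUSG00000078853, chromosome 11, 58199556 to 58207591) was at 16.03 to 20.9 CPM in CON-GFP (median 19.1) and at 21.4 to 36.1 CPM in FPC-GFP (median 30.1), with no overlap and a log2 fold change of 0.65 ± 0.13 (edgeR, adjusted p = 0.00304). Iigp1 (-0.43 ± 0.22), first of the 41 by mean CPM, was at 171 to 460.4 CPM in CON-GFP (median 240.5) and at 141 to 279 CPM in FPC-GFP (median 185). Its spread in CON-GFP came with 1 liver, CON-GFP 2, at 460.4 CPM. Tap1 rose by 0.45 on the log2 scale, and Tap2, its partner in the transporter that carries peptides into the endoplasmic reticulum, had a change of 0.38 ± 0.15 (edgeR, adjusted p = 0.0777). Ubd, which encodes the ubiquitin-like modifier FAT10, rose from 1.66 ± 0.7496 CPM (mean ± SD, n = 6) to 4.34 ± 1.85 CPM, a fold change of 2.63, while Isg15, Usp18 and Herc6 had log2 fold changes of -0.062, 0.15 and -0.34 and did not pass.

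The Rsad2 call was lost when any 1 of CON-GFP 1, 2, 6 or 7 or FPC-GFP 11, 13 or 20 was left out (largest adjusted p = 0.0642, edgeR), the Tap1 call without CON-GFP 1, CON-GFP 6 or FPC-GFP 12 (0.0604) and the Parp14 call without CON-GFP 1 (0.0549). With sheet numbers from 55 to 68 alone 7 genes rose (Bst2, Ddx58, Igtp, Irf1, Oas1a, Slfn2 and Ubd), 17.1% of the 41 where 7.59% of all genes did, with a median over the 41 of 0.30. With all 18 libraries in one fit 8 did, 19.5% where 5.86% of all genes did. Scaling by library size alone moved the median of all tested genes to 0.21 and that of the 41 to 0.47. The count of rising members went to 22 (53.7%, against 23.7% of all tested genes). Of the 4079 genes past the threshold, 3387 were then higher, against 1850 of 3410 under TMM.

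**Figure D2:**
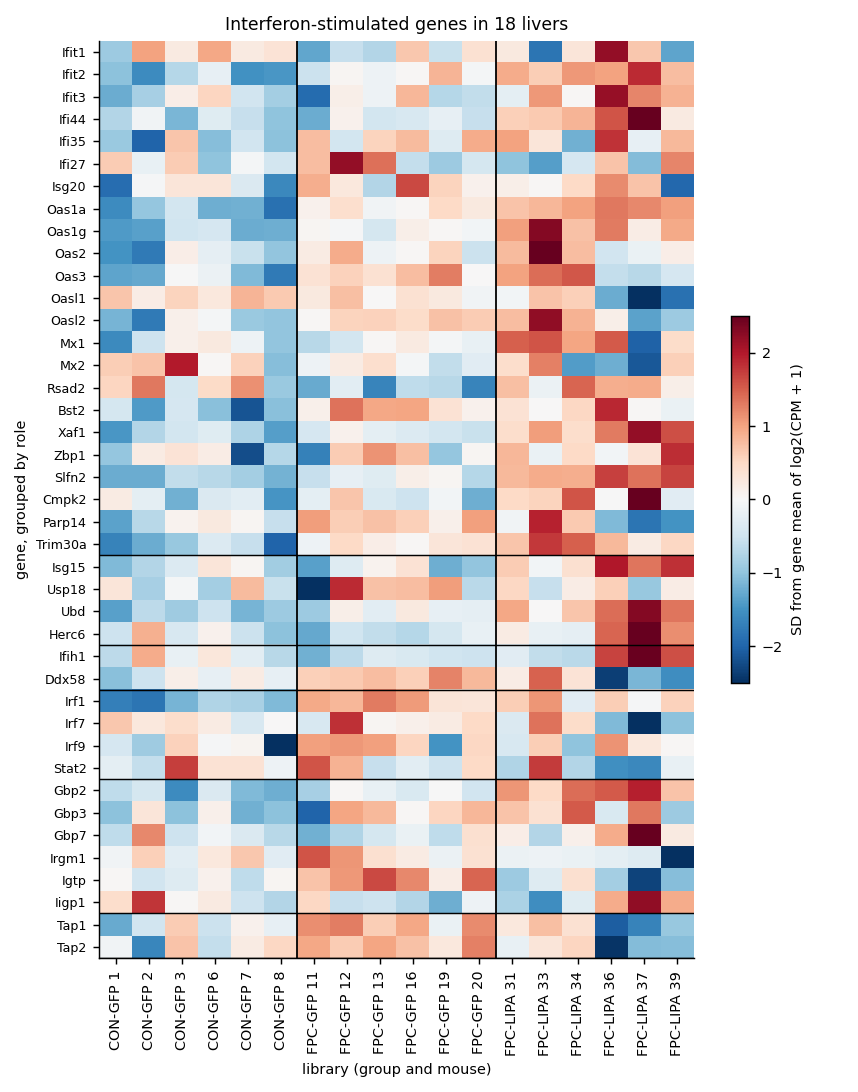
Level of each of the 41 genes (rows, grouped by role) in each of the 18 livers (columns), as the distance from the gene's mean of log2(CPM + 1) in SD, with the 3 groups divided by vertical lines. Oas1a steps up from CON-GFP to FPC-GFP to FPC-LIPA, and among the FPC-LIPA livers 36, 37 and 39 differ from 31, 33 and 34 in both directions.

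The second comparison asks what LIPA added on the FPC diet. In FPC-LIPA against FPC-GFP, 12 of the 41 genes rose (29.3%), where 14.4% of all 14620 tested genes did, and 1 fell, Igtp, where 6.87% did. The rising genes were Slfn2, Gbp2, Xaf1, Ifi44, Ifit2, Oas1a, Oas1g and Rsad2, the ISG15-system genes Isg15 and Herc6, the ubiquitin-like gene Ubd, and the sensor gene Ifih1. Herc6, Ifi44, Oas1g, Slfn2, Ubd and Xaf1 were also DE (6 of 41, where 10.3% of tested genes were DE and higher), and Igtp was not among the 1.11% of tested genes that were DE and lower. The median log2 fold change was 0.21 over the 41 genes and 0.04 over all tested genes, and 24 of the 41 were above 0.

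Slfn2 (ENSMUSG00000072620, chromosome 11, 83065112 to 83070678), a Schlafen gene needed to keep lymphocytes and monocytes quiescent, was at 4.82 to 9.16 CPM in FPC-GFP (median 6.76) and at 14.5 to 26.8 CPM in FPC-LIPA (median 18.5). All FPC-LIPA livers were above all FPC-GFP livers, while those of CON-GFP, at 3.096 to 5.19 CPM, overlapped FPC-GFP. The log2 fold change was 1.54 ± 0.22 (edgeR, adjusted p = 0.007897). Xaf1 (ENSMUSG00000040483, chromosome 11, 72301629 to 72313733), which encodes an antagonist of the apoptosis inhibitor XIAP, was at 5.74 to 7.92 CPM in FPC-GFP (median 6.25) and at 9.300 to 21.2 CPM in FPC-LIPA (median 13.2), with no overlap and a log2 fold change of 1.08 ± 0.21 (edgeR, adjusted p = 0.0118). Ifi44 (ENSMUSG00000028037, chromosome 3, 151730922 to 151749960) was at 1.28 to 3.52 CPM in FPC-GFP (median 2.44) and at 3.795 to 16.1 CPM in FPC-LIPA (median 5.300), also without overlap although 1 FPC-LIPA liver, 37, set the upper end, with a log2 fold change of 1.56 ± 0.35 (edgeR, adjusted p = 0.0152). Oas1g (1.02 ± 0.26) and Oas1a (0.61 ± 0.16) rose again from their FPC-GFP levels, whereas Oas3, which had risen most of its family with the diet, had a log2 fold change of -0.022 ± 0.36.

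Rsad2, which had fallen with the diet, rose with LIPA, with 3.999 to 5.83 CPM in FPC-GFP against 6.02 to 9.05 CPM in FPC-LIPA, a log2 fold change of 0.65 ± 0.17 (edgeR, adjusted p = 0.0239). In 5 of the 6 FPC-LIPA livers Rsad2 lay in the CON-GFP range of 4.89 to 8.77 CPM. Ifit2 rose by 0.59 ± 0.19 on the log2 scale. Ifit1 and Ifit3, which like IFIT2 bind viral RNA or its complexes, had log2 fold changes of 0.21 ± 0.25 and 0.45 ± 0.20 and did not pass, and 31.7% of the sequence of Ifit3 also occurred in its copy Ifit3b. Ifi27 at 70.6 to 126 CPM and Bst2 at 199.9 to 280.4 CPM overlapped FPC-GFP, with changes of -0.24 ± 0.22 and -0.043 ± 0.15.

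Of the ISG15 and ubiquitin-like genes 3 rose, Isg15, Herc6 and Ubd, which encodes a modifier apart from ISG15. ISG15 is a ubiquitin-like protein that HERC6 attaches to others in mice and USP18 removes. Ubd (ENSMUSG00000035186, chromosome 17, 37193892 to 37196095) was at 1.56 to 6.75 CPM in FPC-GFP (median 3.97) and at 5.11 to 52.3 CPM in FPC-LIPA (median 17.4), a log2 fold change of 2.26 ± 0.47 (edgeR, adjusted p = 0.0136). It had the largest fold change of the 41, 4.77, although mouse 33 of FPC-LIPA, with 5.11 CPM, lay within the FPC-GFP range. Isg15 was at 5.05 to 9.999 CPM in FPC-GFP and 8.52 to 18.5 CPM in FPC-LIPA, and its difference on the log2 scale was 0.90 ± 0.24 (edgeR, adjusted p = 0.0239). Herc6 was at 4.52 to 8.31 CPM and 8.14 to 37.5 CPM, with a difference of 1.33 ± 0.34 (edgeR, adjusted p = 0.0214). The groups overlapped in both genes. Usp18 had a log2 fold change of -0.10 ± 0.21. With each library's trend on gene length removed, the change of Isg15, one of the shortest of the 41 at 756 bases, was 0.23 and did not pass (adjusted p = 0.332, edgeR). The LIPA call of Oas1a was lost in the same way (0.42, adjusted p = 0.0631, edgeR).

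The GTPases divided. Gbp2 (ENSMUSG00000028270, chromosome 3, 142620602 to 142638008), a guanylate-binding protein of the interferon-γ response, was at 4.02 to 6.01 CPM in FPC-GFP (median 5.23) and at 7.43 to 13.9 CPM in FPC-LIPA (median 10.4), with no overlap and a log2 fold change of 0.99 ± 0.19 (edgeR, adjusted p = 0.0112). Igtp fell to 8.58 to 23.1 CPM, a log2 fold change of -0.93 ± 0.22 (edgeR, adjusted p = 0.0165). Its FPC-LIPA median of 14.6 CPM was below the CON-GFP median of 19.1 CPM. Igtp overlaps Irgm2 on the same strand, and 11.8% of its sequence in words of 50 bases also occurred in other genes, mostly Irgm2. The counts of Igtp are therefore uncertain in both comparisons. Gbp7 had a fold change of 2.83 that did not pass (adjusted p = 0.0509, edgeR), with 46.5 CPM in mouse 37 and no more than 11.8 CPM in the remaining livers of the group. Irgm1 had a change of -0.50 ± 0.23, Gbp3 of 0.10 ± 0.24 and Iigp1, at 125 to 542 CPM in FPC-LIPA (median 266), of 0.53 ± 0.31. The factors Irf1, Irf7, Irf9 and Stat2 had log2 fold changes of -0.13, -0.35, -0.058 and -0.20, and the transporters Tap1 and Tap2 of -0.52 and -0.59 (adjusted p = 0.0866 and 0.05397, edgeR). None of these 6 passed.

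**Figure D3:**
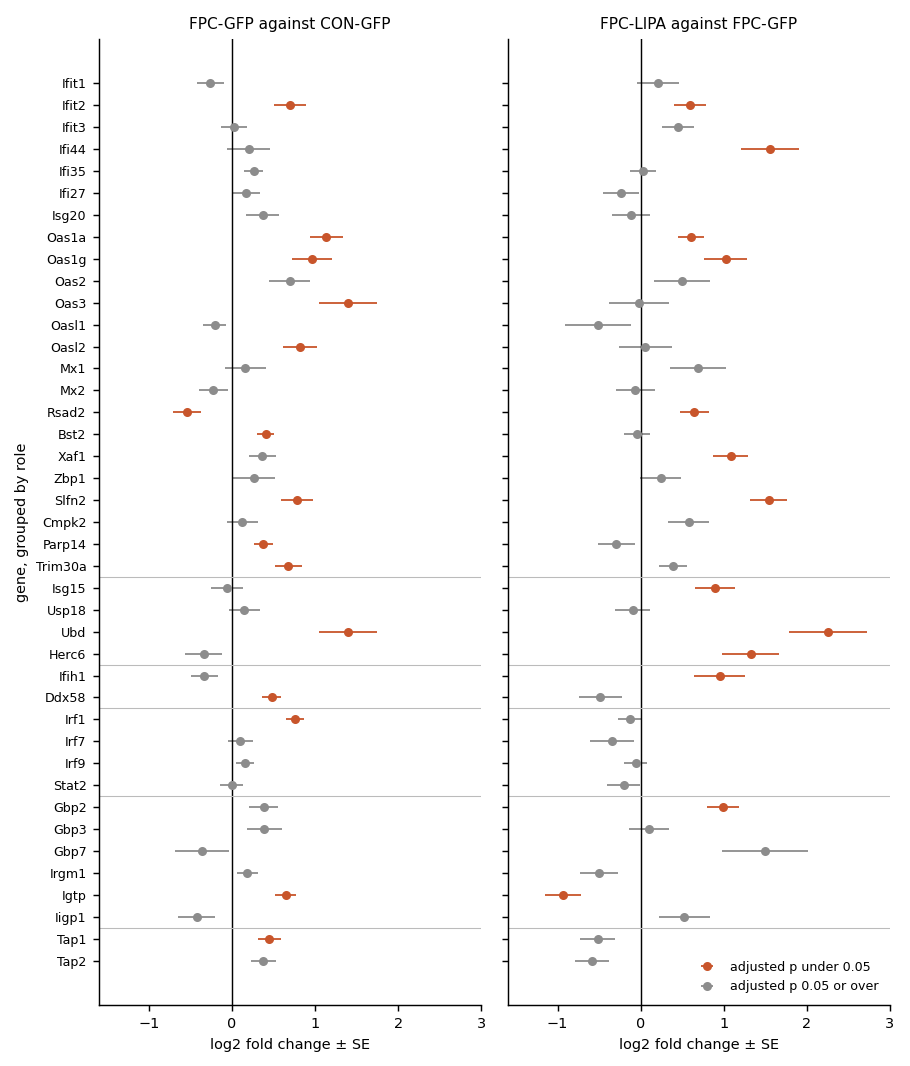
Log2 fold change ± SE of the 41 genes, grouped by role, in FPC-GFP against CON-GFP (left) and FPC-LIPA against FPC-GFP (right), with genes past an adjusted p of 0.05 in orange and the others in grey. Rising genes number 14 on the left and 12 on the right, Rsad2 falls on the left and Igtp on the right.

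Several of the LIPA calls depended on which livers were in the fit. Without FPC-LIPA 36, 37 and 39, Gbp2 (0.86), Oas1g (1.23) and Slfn2 (1.15) still rose. In this fit 3 members (7.32%) and 1.11% of all genes rose. The log2 fold change was 0.04 for Ifih1, 0.42 for Herc6, 0.48 for Isg15, 0.68 for Xaf1, 1.07 for Ifi44 and 1.21 for Ubd. None of these passed, nor did Ifit2, Oas1a, Rsad2 or Igtp. At an unadjusted p under 0.05 (edgeR), 16 members were higher and 1 lower in this fit, against 16 and 4 with all FPC-LIPA livers. The share of all genes at that threshold was not counted, so these counts say nothing particular to the members. With sheet numbers from 55 to 68 alone, 104 of all genes passed, and of the 41 Slfn2 did (1.43, adjusted p = 0.0391, edgeR), while the other 11 rising genes kept their direction at adjusted p from 0.0592 (Gbp2 and Xaf1) to 0.142 (Ifih1). Rising members numbered 7 without FPC-LIPA 36 (17.1%, against 6.01% of all genes). Falling members numbered 5 without FPC-LIPA 33 (12.2%, under the 16.4% of all genes) and 2 without FPC-LIPA 34 (4.88% against 9.94%). Without FPC-LIPA 37, which had the highest Ubd, Ifi44 and Herc6, 11 members rose (26.8%, against 7.34% of all genes). Ubd, Ifi44 and Herc6 still passed, at 1.73, 1.17 and 0.90 on the log2 scale. Single libraries ended the calls of Ifih1 (any FPC-GFP library, FPC-LIPA 36, 37 or 39, largest adjusted p = 0.0961, edgeR), Ifit2 (FPC-GFP 11, 12, 13, 16 or 20, FPC-LIPA 34, 36, 37 or 39, 0.0809), Isg15 (FPC-GFP 11 or 20, FPC-LIPA 36 or 39, 0.0605), Rsad2 (FPC-GFP 11, 13 or 20, FPC-LIPA 36, 0.0565) and Oas1a (FPC-GFP 13, FPC-LIPA 36, 0.0540). Scaling by library size alone moved the median of all tested genes to -0.09, and then 6 of the 41 rose (14.6%, against 8.02% of all tested genes). Of the 1438 genes past the threshold, 1172 were then higher, against 2098 of 3102 under TMM.

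The comparisons share the FPC-GFP livers, so a high or low FPC-GFP value moves their results in opposite directions, and genes past the threshold in both, such as Igtp and Rsad2, are given above by each comparison's own values. The members past it in neither were Cmpk2, Gbp3, Gbp7, Ifi27, Ifi35, Ifit1, Ifit3, Iigp1, Irf7, Irf9, Irgm1, Isg20, Mx1, Mx2, Oas2, Oasl1, Stat2, Tap2, Usp18 and Zbp1. Cmpk2, a mitochondrial nucleotide kinase gene next to Rsad2 on chromosome 12, had log2 fold changes of 0.13 ± 0.18 and 0.58 ± 0.25. Zbp1, whose product senses Z-form nucleic acids, had 0.27 ± 0.26 and 0.24 ± 0.25, and the exonuclease gene Isg20 0.37 ± 0.20 and -0.12 ± 0.22. Ifi35 had 0.26 ± 0.11 and 0.025 ± 0.15. Mx1, a dynamin-like antiviral GTPase gene that is defective in C57BL/6 mice, was at no more than 3.70 CPM in any liver (0.16 ± 0.24 and 0.70 ± 0.34), and Mx2 had -0.23 ± 0.18 and -0.062 ± 0.24. An adjusted p over the threshold does not show that any of these genes kept its level.

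**Figure D4:**
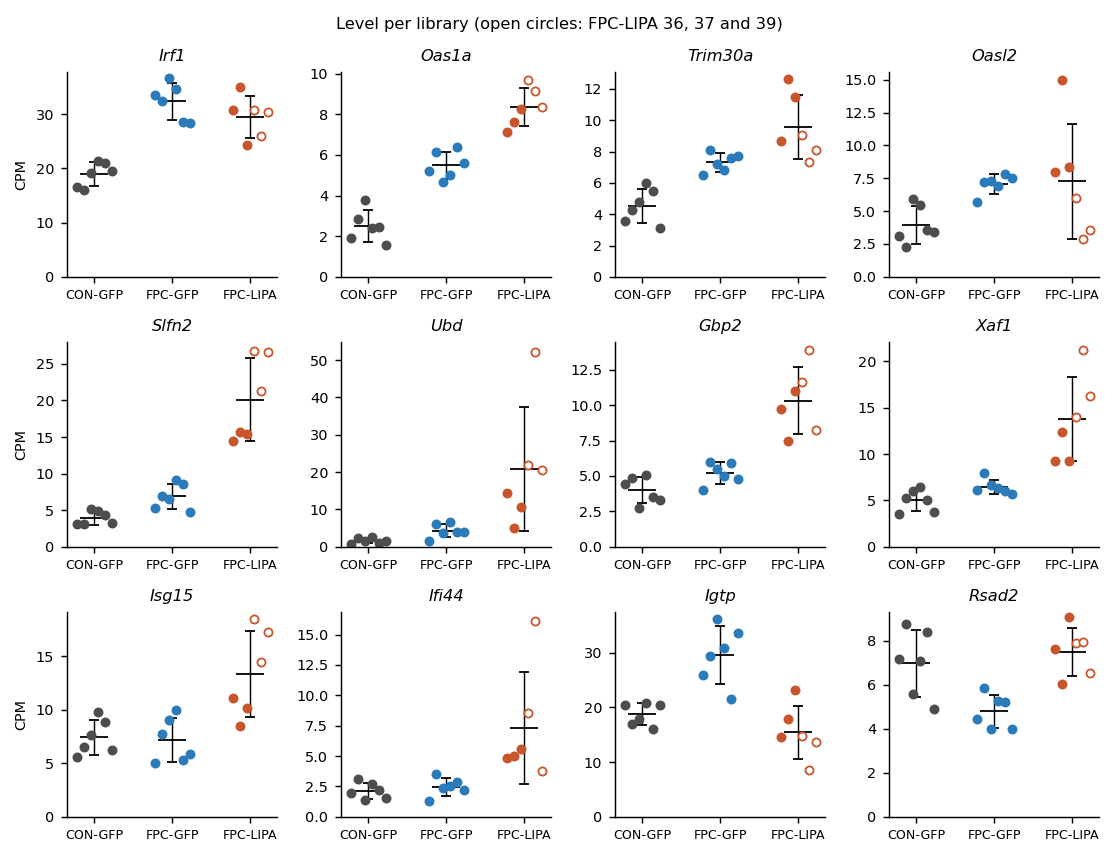
CPM of 12 of the 41 genes in each liver, by group, with the mean and SD (n = 6) as a bar with whiskers, and FPC-LIPA 36, 37 and 39 as open circles. Irf1, Oas1a and Trim30a separate CON-GFP from FPC-GFP, Slfn2, Gbp2, Xaf1, Ifi44 and Rsad2 separate FPC-GFP from FPC-LIPA, and the open circles hold the upper FPC-LIPA values of Slfn2, Ubd and Isg15.

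The 3 FPC-LIPA livers with a high ribosomal share lay above the other 3 in some members and below them in others, about as often as in all genes. In 9 of the 41 genes (Gbp7, Herc6, Ifih1, Iigp1, Isg15, Oas1a, Slfn2, Ubd and Xaf1) mice 36, 37 and 39 were all above mice 31, 33 and 34, as in 23.9% of all tested genes, and in 10 (Ddx58, Irf7, Irgm1, Oas2, Oas3, Oasl1, Oasl2, Parp14, Tap1 and Tap2) they were all below, as in 23.2%. The members' shares were 22.0% and 24.4%, so the counts say nothing particular to them. The values that follow are of genes chosen after their values were seen. The 2 RNA sensors lay on opposite sides. Ifih1 was at 44.8 to 63.5 CPM in mice 36, 37 and 39 and at 17.4 to 20.5 CPM in mice 31, 33 and 34, the latter close to FPC-GFP at 14.00 to 20.2 CPM. Ddx58 was at 6.21 to 9.53 CPM and 14.8 to 22.6 CPM, with FPC-GFP at 16.99 to 20.96 CPM. Oasl1, whose product restrains the translation of Irf7, was at 0.953 to 3.01 CPM and 5.74 to 8.44 CPM, and Irf7 itself at 15.7 to 27.4 CPM and 33.7 to 56.9 CPM. Iigp1 was at 329.5 to 542 CPM and 125 to 203 CPM. Ribosomal share moved with these values, and its part in them was not tested. FPC-LIPA 33 had the highest FPC-LIPA value of 14 members, among them Oas1g, Oas2, Oasl2, Stat2 and Trim30a. It had the lowest of 10, among them Isg15, Gbp2 and Ubd. FPC-LIPA 37 had the highest of 10, among them Ubd, Gbp2, Ifih1 and Ifi44, and the lowest of 12. The same was not counted over all genes, so these counts say nothing particular to the members.

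**Figure D5:**
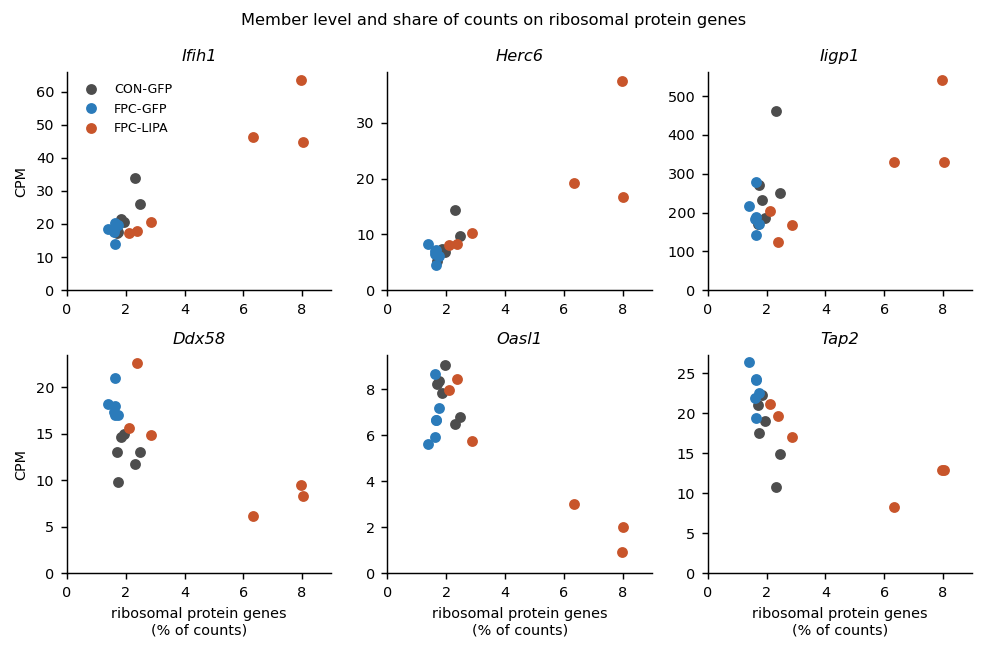
CPM of 6 members (vertical) against the percentage of counts on ribosomal protein genes (horizontal) in each of the 18 livers, coloured by group. The 3 FPC-LIPA livers at 6.33% to 8.02% hold high values of Ifih1, Herc6 and Iigp1 and low values of Ddx58, Oasl1 and Tap2.

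Summed over the 41 genes, the level was from 838 to 1164 CPM in CON-GFP, from 922 to 1186 CPM in FPC-GFP and from 989 to 1459 CPM in FPC-LIPA. Iigp1 or Bst2 was the largest part in every liver. Without Iigp1 the sums were from 666 to 802, from 780.3 to 1004 and from 822 to 959 CPM. Per kb of transcript, the mean level over the 18 livers was highest for Bst2 (230.3 CPM per kb), Ifi27 (66.9) and Iigp1 (42.4), the same 3 genes that had the most counts. Members lay on 15 chromosomes, with 6 on chromosome 5 (the oligoadenylate synthetase and synthetase-like genes) and 6 on chromosome 11, and had a median transcript length of 3785 bases against 4088 for the tested genes.

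Of 76 other genes of the pathway, none of the 8 interferon genes was tested. Ifnb1, Ifng, Ifna2, Ifna4, Ifne, Ifnl2 and Ifnl3 had at most 3 counts in any liver, 5 of them 0 in all 18, and Ifnk at most 8, so a change in the ligands was not detectable at this depth. In FPC-GFP against CON-GFP, 63 of the 76 were tested, 14 rose (22.2%, against 12.9% of all genes) and 2 fell (3.17% against 10.9%). In FPC-LIPA against FPC-GFP 65 were tested, 6 rose (9.23%, under the 14.4% of all genes) and 3 fell (4.62% against 6.87%). Without FPC-LIPA 36, 37 and 39, a setting added for this list after seeing the data, 0 of 66 passed (edgeR). At an unadjusted p under 0.05 (edgeR), 10 were higher and 4 lower, and the share of all genes there was not counted. Of the receptors, Ifngr1 (0.59 ± 0.12), which binds interferon-γ, and Il10rb (0.95 ± 0.17), a chain shared by the type III interferon and interleukin-10 receptors, rose with the diet. Irf8, a factor of macrophages and dendritic cells, rose with the diet (0.79 ± 0.18), and none of the 5 kinase genes passed in either comparison.

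Of the pathway's sensors and adaptors, Sting1, the adaptor of the DNA sensor cGAS, rose with the diet, with 0.448 to 1.66 CPM in CON-GFP against 3.12 to 4.05 CPM in FPC-GFP, and its log2 difference was 1.57 ± 0.27 (edgeR, adjusted p = 0.001303). Dhx58, a relative of Ddx58 and Ifih1, also rose (0.48 ± 0.12). Of 8 sensors and adaptors tested, 3 rose with the diet, and 2 rose and 1 fell with LIPA. Tlr7, a receptor of single-stranded RNA in endosomes, rose with the diet (0.97 ± 0.27) and again with LIPA (1.59 ± 0.39). Mavs, the adaptor of both RNA sensors, fell with LIPA (log2 fold change -0.89, adjusted p = 0.0204, edgeR). Mavs was at 87.9 to 109 CPM in FPC-GFP, 31.3 to 47.1 CPM in mice 36, 37 and 39 and 52.8 to 90.2 CPM in mice 31, 33 and 34. Of the inhibitors, the phosphatase genes Ptpn6 (0.51 ± 0.12) and Ptpn2 (-0.33 ± 0.11) rose and fell with the diet. Of 29 further induced genes, Lgals3bp (0.96 ± 0.14) and the chemokine gene Cxcl10 (1.11 ± 0.25) had the smallest adjusted p of 6 that rose with the diet, and the GTPase genes Gbp8 (1.16 ± 0.28) and Gbp9 (0.80 ± 0.21) that of 4 that rose with LIPA. Without FPC-LIPA 36, 37 and 39 the changes were 0.91 for Gbp8, 0.83 for Gbp9, 0.86 for Tlr7, -0.53 for Mavs and -0.32 for H2-K1. Of 9 genes of MHC class I and its peptides, Tapbp rose (0.46 ± 0.13) and Erap1 fell (-0.46 ± 0.13) with the diet, and H2-K1 fell with LIPA (-0.73 ± 0.25), at 505 to 524 CPM in mice 36, 37 and 39 and 821 to 1120.2 CPM in mice 31, 33 and 34.

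Some markers of immune cells rose in each comparison and others did not. All 6 Kupffer cell markers rose with the diet, their sum going from 103 to 216 CPM in CON-GFP up to 305 to 513 CPM in FPC-GFP, and 3 of 6 rose with LIPA, to a sum of 414 to 860.4 CPM in FPC-LIPA. Of 7 monocyte and macrophage markers 5 rose with the diet and 4 with LIPA, with sums of 52.1 to 121, 148 to 382 and 446 to 754 CPM. Lyz2, at a mean of 500 CPM in FPC-LIPA, made up most of that group's sum. Csf1r (-0.13 ± 0.37), Cd68 (0.12 ± 0.33) and Ly6c2 (0.33 ± 0.74) did not pass with LIPA. Of 4 plasmacytoid dendritic cell markers, Ly6d rose with the diet, and its mean of 63.1 CPM in FPC-GFP made up most of the list's sum of 22.1 to 168 CPM there (12.4 to 18.4 CPM in CON-GFP). The means of Siglech, Ccr9 and Tcf4 were lower in FPC-GFP than in CON-GFP. Siglech and Tcf4 rose with LIPA, to means of 1.23 and 18.2 CPM. Most of the list's sum of 41.2 to 223 CPM in FPC-LIPA was Ly6d (mean 92.6 CPM), which did not pass with LIPA (0.56 ± 0.58). Of the markers tested with LIPA, 2 of 4 B cell, 2 of 3 neutrophil, 1 of 3 T cell and 1 of 2 NK cell markers rose. In that comparison 14.4% of all genes rose. These lists summed to no more than 20.001 CPM in FPC-LIPA. With the diet only 3 B cell, 3 neutrophil, 2 T cell and 1 NK cell markers were tested, and none of those rose. Ms4a1, Cd3d and Gzma, which rose with LIPA, were not tested with the diet. Of 4 endothelial markers 2 rose with the diet and none with LIPA. Ly6g, which defines neutrophils, had 0 counts in all CON-GFP and FPC-LIPA livers. Of the 4 hepatocyte markers Serpina1a fell with the diet (-0.65 ± 0.15), with no overlap between the groups. Without FPC-LIPA 36, 37 and 39 the markers that rose with LIPA were Cd5l, Adgre1, Lyz2, Fcgr1 and Ptprc. Ptprc, the gene of the leukocyte protein CD45, was at 4.08 to 10.02 CPM in CON-GFP (median 5.77), 6.05 to 12.8 CPM in FPC-GFP (median 8.32) and 14.5 to 76.6 CPM in FPC-LIPA (median 20.1), with 76.6 CPM in FPC-LIPA 37, and its log2 fold changes were 0.50 ± 0.23 with the diet, which did not pass, and 1.67 ± 0.38 with LIPA, which did. The part of these cells in the changes of the 41 genes was not tested.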

How the data were processed

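Liver RNA was sequenced with 1 library per mouse from 6 CON-GFP, 6 FPC-GFP and 6 FPC-LIPA mice. The authors trimmed the reads, mapped them with HISAT2 2.1.0 to mm10 (GRCm38) and counted them per gene with featureCounts of Subread, and the deposited values are these raw counts, without normalization. The labels name a stranded and an unstranded kit without saying which library had which, and the strand setting and the handling of reads with several positions are not given in the sources used here, so counts of close copies, overlapping genes and antisense genes are uncertain. Of 23 columns of counts, 5 matched no sample and were not used.

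Genes were filtered with filterByExpr, scaled by TMM and tested with edgeR 4.0.16 (quasi-likelihood test, R 4.3.3) within the 12 libraries of a comparison, with Benjamini-Hochberg adjustment over all tested genes. Rose and fell mean an adjusted p under 0.05, and DE adds a fold change of at least 2. The SE of a log2 fold change is its size over the square root of F. CPM is TMM-scaled over all 18 libraries. Errors are over mice, and the count minimum of 3 covers counting only. In simulated counts with 200 genes changed by 2 on the log2 scale, the test recovered 192 among 14144 genes for the diet comparison and 180 among 14446 for LIPA, with 7 and 5 false calls. Calls in the simulation followed the rule for DE. They therefore do not measure power or error for smaller changes or for genes that only rose or fell. Genes were drawn independently around 1 mean per group, so differences shared by many genes, as between FPC-LIPA livers, were not simulated. DESeq2 1.42.0 (Wald test and size factors), library size alone, no filter, a stricter threshold, one fit of all libraries, sheet numbers from 55 to 68, removal of the gene length trend and leaving out libraries were alternatives. Shared sequence was counted in words of 100 bases of GENCODE M21 transcripts, and words of 50 bases were added after seeing the data. Genes were named by rule: range and median for the 6 smallest adjusted p in each comparison and the 3 highest mean CPM; of the pathway, the smallest adjusted p, at most 2 per role, plus Ptprc. One gene of the pathway is not reported here. Within FPC-LIPA, genes were chosen after their values were seen. The members and lists were chosen with earlier results of these data known. Mice are separate animals, so p-values measure the spread between mice. Tables were made with pandas 2.3.3 (Python 3.11.15) and figures with matplotlib 3.10.9.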

Additional observations from a re-analysis of the deposited data

Results flagged for a closer look

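In 126 sets of 6 livers (the 41 genes and their sum, in 3 groups), 1 liver stood far from the other 5 in 15. Chance passes the limit used in about 1 in 20 sets of normally distributed values. CPM values may be skewed and the sets share livers, so that rate is no reference for the 15 sets. In CON-GFP these were Stat2 in mouse 3 (81.6 CPM, others 50.6 to 61.7), and Gbp7 (14.1, others 3.98 to 6.15) and Iigp1 (460.4, others 171 to 272) in mouse 2. In FPC-GFP they were Ifit2 (6.55, others 3.68 to 4.74), Irf9 (23.0, others 29.2 to 31.1) and Ddx58 (20.96, others 17.0 to 18.2) in mouse 19, Oas1g in mouse 13 (1.63, others 2.103 to 2.38) and Irf7 in mouse 12 (65.6, others 33.2 to 43.8). In FPC-LIPA, mouse 37 stood high for Ifit2 (9.77, others 5.97 to 7.19), Gbp7 (46.5, others 3.88 to 11.8) and Ubd (52.3, others 5.11 to 21.9), mouse 33 for Oas2 (24.3, others 5.14 to 9.84) and Stat2 (81.7, others 41.1 to 55.03), and mouse 36 for Bst2 (280.4, others 199.9 to 223.5), and mouse 39 stood low for Irgm1 (14.5, others 36.3 to 38.6).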

How the results depend on the processing

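No gene past the threshold changed direction under the alternatives run. No paired analysis was possible because the groups share no mouse numbers. In the diet comparison (14 rose, 1 fell, 3 DE and higher), library size alone gave 22 and 0 with 5 DE and a median of 0.47, all 18 libraries in one fit 8 and 0, sheet numbers from 55 to 68 gave 7 and 0, and an adjusted p under 0.01 gave 5 and 0 with 1 DE. Leaving out 1 library gave 12 to 17 risen and 0 to 1 fallen, where 9.5% to 13.2% of all genes rose. In the LIPA comparison (12 rose, 1 fell, 6 DE and higher), library size alone gave 6 risen, 1 DE and lower and a median of 0.045, DESeq2's Wald test 2 fallen, one fit of all libraries 3 fallen, sheet numbers from 55 to 68 gave 1 risen, 0 fallen and 1 DE, removal of the length trend 2 fallen and 1 DE and lower, FPC-LIPA 36, 37 and 39 left out 3 risen, 0 fallen and 2 DE, and an adjusted p under 0.01 gave 1 risen, 0 fallen and 1 DE. Leaving out 1 library gave 7 to 13 risen, 1 to 5 fallen, 4 to 9 DE and higher, 0 to 1 DE and lower, and a median from 0.11 to 0.30. Of all genes, 6.01% to 21.6% rose in those fits. At an unadjusted p under 0.05 (edgeR), 19 members were higher and 1 lower with the diet and 16 higher and 4 lower with LIPA. DESeq2's Wald test gave 19 and 2, and 17 and 4. The shares of all genes at this unadjusted threshold were not counted. With no filter 8 members rose with LIPA (19.5%, against 6.42% of all genes). Shared sequence in words of 50 bases exceeded 10% in 6 members, against 5 with 100. The causes of these differences were not tested.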
